A study of Mus musculus with 10 samples.

Results

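The secreted Wnt inhibitors are 10 genes, Dkk1, Dkk2, Dkk3, Sfrp1, Sfrp2, Sfrp4, Frzb, Wif1, Sost and Notum, listed by name. The list was chosen with earlier results of these data known. All 10 were measured, out of 18193 genes on the arrays. Together they have 18 probe sets, and the one brightest on average over the 10 arrays stands for its gene.

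The arrays measured total RNA of lower incisor dental mesenchyme from wild-type C57BL/6J mice at postnatal day 60. In 5 mice the inferior alveolar nerve, which carries sensation from the lower jaw and teeth, had been resected on 1 side 2 weeks earlier. The 5 incisors of that side are called denervated and the 5 of the opposite side contralateral, and arrays of equal number are taken as the 2 incisors of a mouse (mouse 1 to mouse 5). The contralateral incisors come from the operated animals. There is no sham operation in the design, and denervation and surgery cannot be told apart. The values are log2 intensities, and differences are denervated minus contralateral.

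Wnt proteins are lipid-modified ligands that bind a Frizzled receptor together with the coreceptor Lrp5 or Lrp6, which stabilises beta-catenin and switches on target genes such as Axin2. The secreted inhibitors act outside the cell. Dickkopf proteins (Dkk1, Dkk2) and sclerostin (Sost) occupy the Lrp coreceptors. The frizzled-related proteins (Sfrp1, Sfrp2, Sfrp4 and Frzb, also called Sfrp3) and Wif1 bind the Wnt ligand itself, and Notum is an enzyme that removes the lipid from it. Several of these genes, Dkk1 and Notum among them, are themselves targets of beta-catenin in some tissues. In teeth and bone the inhibitors are known from odontoblasts, osteocytes and mesenchymal progenitor cells.

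The promoters of 3 members are printed first, Dkk1 and Sfrp2 chosen by their values and Frzb by its match to a motif. Dkk1 had the lowest difference of the 10, Frzb is the other member with a match to the motif searched, and Sfrp2 had the widest spread between incisors. RefSeq promoter windows on build GRCm38.p6, 250 bases before to 50 bases after the annotated start, were matched for 6 members (Dkk1, Dkk2, Sfrp2, Frzb, Wif1 and Sost). Capitals mark TCAAAG on either strand (read as CTTTGA on the opposite one), the core letters that TCF and LEF factors, the DNA-binding partners of beta-catenin, recognise. The windows are chr19:30549447-30549746, minus strand, for Dkk1, chr2:80447347-80447646, minus strand, for Frzb, and chr3:83766071-83766370, plus strand, for Sfrp2, each written 5′ to 3′ on the strand of its gene.
Dkk1: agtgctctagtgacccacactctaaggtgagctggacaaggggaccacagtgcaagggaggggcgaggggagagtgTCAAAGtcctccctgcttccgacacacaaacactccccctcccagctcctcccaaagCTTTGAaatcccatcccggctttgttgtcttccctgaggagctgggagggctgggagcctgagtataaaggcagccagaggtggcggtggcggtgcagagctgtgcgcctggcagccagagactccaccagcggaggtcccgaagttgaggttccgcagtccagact
Frzb: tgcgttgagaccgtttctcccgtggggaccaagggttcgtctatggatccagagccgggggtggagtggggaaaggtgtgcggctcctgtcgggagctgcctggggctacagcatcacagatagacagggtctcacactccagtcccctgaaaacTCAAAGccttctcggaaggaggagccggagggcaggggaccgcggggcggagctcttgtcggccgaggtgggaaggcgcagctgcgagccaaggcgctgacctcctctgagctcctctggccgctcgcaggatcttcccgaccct
Sfrp2: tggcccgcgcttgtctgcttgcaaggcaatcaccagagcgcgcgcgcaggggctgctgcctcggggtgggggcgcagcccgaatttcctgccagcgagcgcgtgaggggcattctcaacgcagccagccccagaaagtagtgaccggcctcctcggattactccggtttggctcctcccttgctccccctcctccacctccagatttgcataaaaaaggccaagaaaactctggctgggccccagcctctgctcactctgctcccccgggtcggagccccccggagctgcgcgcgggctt
The Dkk1 window held 2 matches, whose first bases lie 174 and 117 bases before the start, in opposite orientations. The Frzb window held 1, at 95 bases before the start. The other 4 windows, that of Sfrp2 included, held none. Of all 32851 windows of this length 16.0% held at least 1 match. A match describes the letters only, and nothing on binding was measured here.

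Over all 45101 probe sets the 10 arrays had medians between 1.48 and 1.54, and values from -0.16 to 13.2. A mean below 2 is called near the low end here, and 40.7% of all genes lie in it. Differences may be compressed there, which was not tested. The tissue label was checked against markers. Odontoblast genes were high (Dspp, a dentin matrix gene, had 12.25 ± 0.08, SD, n = 5, in the contralateral incisors), and of 13 dental mesenchyme factors measured 10 had a mean of at least 4 and 2, Barx1 and Alx4, a mean below 2. Enamel epithelium was also present, since the amelogenin gene Amelx had 12.87 ± 0.06 there. Of 8 skeletal muscle genes 7 had a mean below 2. Denervated arrays 2 and 3 stood apart in several marker lists, as given below beside the members they touch.

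None of the 10 genes differed between denervated and contralateral incisors in limma's test at an adjusted p of 0.05, where the percentage called over all 18193 genes was also 0%. The members' adjusted p values ran from 0.790 to 0.950. With the mouse as a block 0 of 10 passed as well, with adjusted p values from 0.422 to 0.896. At an unadjusted p under 0.05 there were 2 of 10, Dkk3 higher and Dkk1 lower, against 6.21% of all genes, 4.1% higher and 2.11% lower. With the mouse as a block there were also 2, Dkk3 higher and, in place of Dkk1, Sost lower, against 9.92% of all genes, 6.99% higher and 2.93% lower. The split of such genes in the fit without the block depended on the scale. On the deposited values 746 of all genes were higher and 383 lower. With each array centred on its median over the 18193 genes, 261 were higher and 1190 lower, and Dkk1 was the 1 member left. The group means of these gene medians differed by 0.10, denervated minus contralateral. On the deposited values 6 members had a mean difference above 0 and 4 below. Their median was 0.15, beside 0.02 over all genes, of which 55.8% had a higher mean. The groups overlapped in all 10 members, and over all genes 0.951% had groups that did not overlap.

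**Figure D1:**
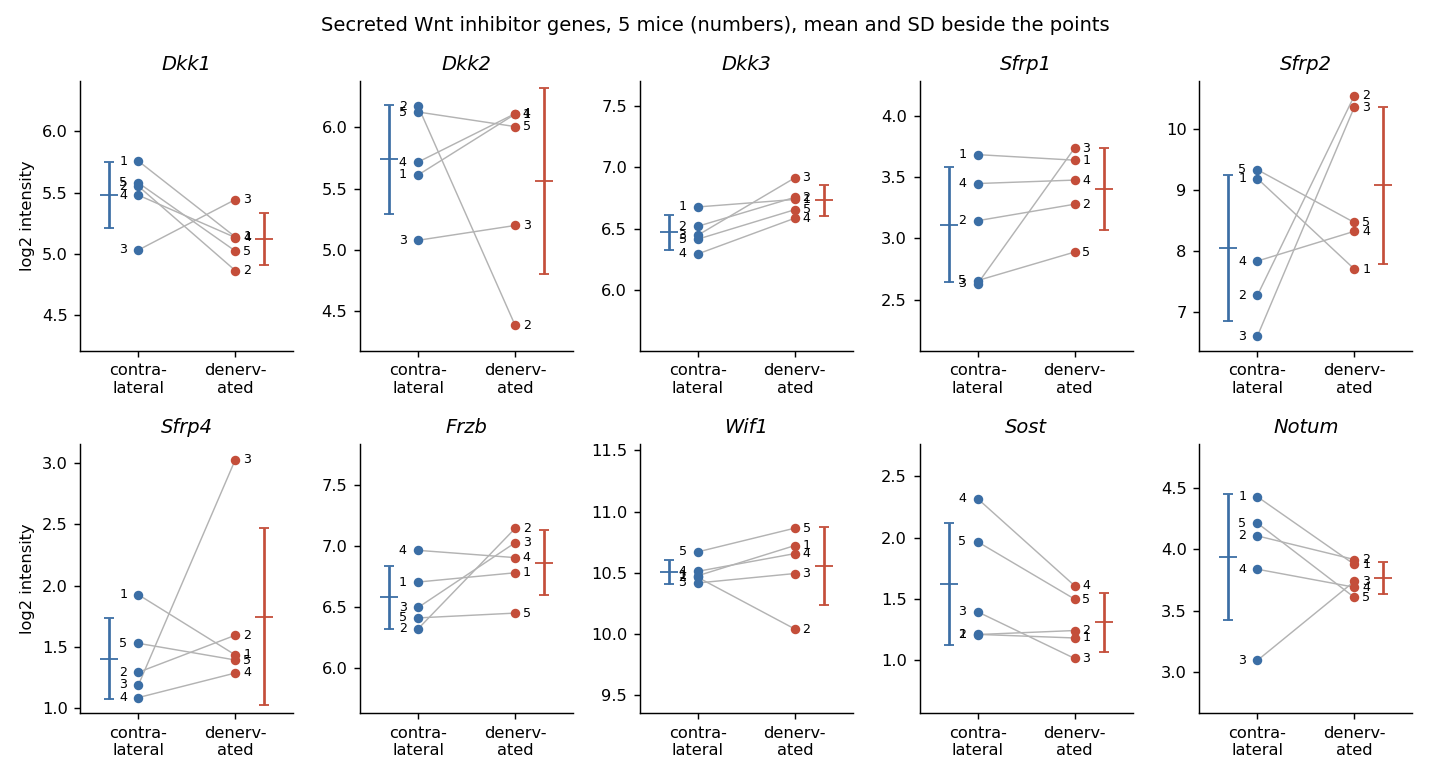
Log2 intensity of each gene in the contralateral (blue) and denervated (red) incisors of 5 mice; numbers are mice, grey lines join the incisors of a mouse, and the bars beside the points are mean and SD. Every panel spans 2.2 log2 units except that of Sfrp2, which spans 4.4. The points of the 2 groups overlap in every panel.

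The Dickkopf genes went different ways. Dkk1, which encodes the classical blocker of Lrp5 and Lrp6, had log2 values of 5.14, 4.86, 5.44, 5.13 and 5.02 in denervated incisors 1 to 5 and of 5.76, 5.55, 5.03, 5.48 and 5.58 in the contralateral ones. Mouse 3 was reversed: its denervated incisor was the highest of its group and its contralateral incisor the lowest of its group. The means were 5.12 ± 0.21 and 5.48 ± 0.27 (SD, n = 5), a difference of -0.36 (95% confidence interval -0.67 to -0.05). Its unadjusted p in limma's fit was 0.0262 and the adjusted p 0.790. Within mice the difference was -0.62, -0.69, -0.35 and -0.56 in mice 1, 2, 4 and 5 and 0.41 in mouse 3. With the mouse as a block the interval was -0.72 to 0.00 and the unadjusted p 0.0521. The unadjusted p depended on the mice and arrays kept. Without both arrays of mouse 3, the mouse that went the other way, the difference was -0.55. The block fit's unadjusted p was then 0.000343, with an adjusted p of 0.348. Mouse 3 is set apart here by its own values, so this small p is not read as support for a difference. Without mouse 1, 2, 4 or 5 the same fit gave differences from -0.36 to -0.28 and unadjusted p values from 0.0993 to 0.152. In the fit with no block, leaving out denervated array 2 or 5 or contralateral array 1, 2 or 5 gave unadjusted p values from 0.0528 to 0.0685.

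Dkk3 encodes a divergent Dickkopf protein that does not share the coreceptor binding of Dkk1. Its values were 6.74, 6.76, 6.91, 6.59 and 6.65 in the denervated and 6.68, 6.52, 6.45, 6.29 and 6.41 in the contralateral incisors. It was higher in each of the 5 mice, by 0.06, 0.24, 0.47, 0.29 and 0.24, and it was the 1 member of 10 with the same direction in all mice, against 10.4% of all genes (6.58% higher and 3.8% lower). The contralateral incisor of mouse 1 lay above the denervated incisors of mice 4 and 5, so the groups overlapped. The difference was 0.26 (0.07 to 0.45), with an unadjusted p of 0.0132 and an adjusted p of 0.790 in limma's fit, and 0.0103 and 0.422 with the mouse as a block. With arrays centred on their medians the difference was 0.16 with an unadjusted p of 0.0810.

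Dkk2, whose protein also binds the Lrp coreceptors, had 6.11, 4.38, 5.20, 6.11 and 6.01 in the denervated and 5.61, 6.17, 5.08, 5.72 and 6.12 in the contralateral incisors. Its difference of -0.18 (-0.92 to 0.56) rested on 1 array. Denervated incisor 2 was 1.78 log2 units below its pair (a within-mouse difference of -1.78), whereas the other mice had differences between -0.12 and 0.50. Without that array the difference was 0.12.

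**Figure D2:**
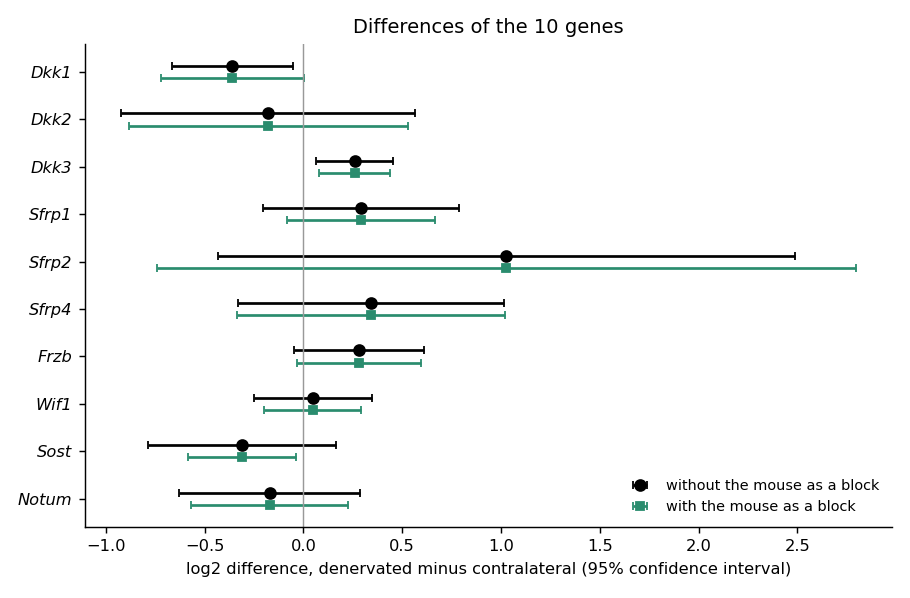
Denervated minus contralateral log2 difference of each gene with its 95% confidence interval from limma, without (black circles) and with (green squares) the mouse as a block. The intervals of Dkk3 lie above 0 in both fits and that of Sost lies below 0 with the block; that of Dkk1 lies below 0 without the block and ends at 0.00 with it, and no adjusted p was below 0.422.

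The frizzled-related genes had higher means after denervation, and most of that came from mice 2 and 3. Sfrp2, a Wnt-binding gene of mesenchymal cells, had 7.71, 10.54, 10.35, 8.32 and 8.47 in the denervated and 9.18, 7.28, 6.61, 7.84 and 9.33 in the contralateral incisors. The within-mouse difference was 3.26 in mouse 2 and 3.73 in mouse 3, and it was -1.48, 0.49 and -0.86 in mice 1, 4 and 5. The mean difference was 1.03 (-0.43 to 2.49), the largest of the 10 members, with an adjusted p of 0.808 in limma's fit. Its SD over the 10 arrays was 1.28, above that of 99.7% of all genes, and the contralateral incisors alone ran from 6.61 to 9.33. Without denervated arrays 2 and 3 the difference was 0.12, and without both incisors of these mice it was -0.62.

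Sfrp4, which encodes a frizzled-related protein of mineralising and connective tissue, was near the low end of the scale in all arrays but 1. Denervated incisor 3 had 3.03, while the other denervated incisors had 1.29 to 1.59 and the contralateral ones 1.09 to 1.93. The difference of 0.34 (-0.33 to 1.02) was 0.02 without that array. Sfrp1, which binds Wnt through a domain like that of Frizzled, had 3.64, 3.28, 3.74, 3.48 and 2.89 against 3.68, 3.14, 2.63, 3.45 and 2.66. Its difference of 0.29 (-0.20 to 0.79) was 1.11 in mouse 3 and between -0.05 and 0.23 in the other mice. Frzb, a gene of cartilage and progenitor mesenchyme, had 6.78, 7.14, 7.03, 6.90 and 6.45 against 6.71, 6.32, 6.50, 6.96 and 6.41. It differed by 0.28 (-0.05 to 0.61), with 0.82 and 0.53 in mice 2 and 3 and between -0.06 and 0.08 in mice 1, 4 and 5. Sfrp1, Frzb, Sfrp2 and Sfrp4 were thus each higher in mice 2 and 3, but not in all of mice 1, 4 and 5.

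Wif1, which encodes a Wnt-binding protein of another structure, had the highest signal of the 10 probe sets, a level that cannot be set against that of other probes. The values were 10.72, 10.04, 10.49, 10.66 and 10.86 in the denervated and 10.48, 10.46, 10.42, 10.51 and 10.67 in the contralateral incisors. The contralateral incisors had an SD of 0.10 (n = 5), the smallest of the 10 members in that group, and the denervated ones 0.32, with incisor 2 lowest. The difference of 0.05 (-0.25 to 0.35) went through 0 with arrays centred on their medians (-0.05) and without denervated array 5 (-0.03).

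Notum, the Wnt deacylase gene, had 3.88, 3.92, 3.74, 3.69 and 3.61 in the denervated and 4.43, 4.11, 3.09, 3.84 and 4.21 in the contralateral incisors. The denervated incisors lay close together, with an SD of 0.13 against 0.52 in the contralateral ones. The difference was -0.17 (-0.63 to 0.29), lower in 4 of 5 mice and 0.64 in mouse 3. Single arrays moved it in both directions: it was -0.38 without contralateral array 3, the lowest of all 10, but -0.05 without contralateral array 1 and -0.10 without contralateral array 5. Mouse 3 was therefore the exception for both Dkk1 and Notum. Over the 10 arrays, which include both incisors of each mouse, Pearson's r between these genes was 0.69.

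Sost, the sclerostin gene of osteocytes, was near the low end of the scale in all arrays but contralateral array 4, with 1.18, 1.24, 1.01, 1.61 and 1.50 in the denervated and 1.21, 1.21, 1.39, 2.32 and 1.97 in the contralateral incisors. Mice 4 and 5 had the higher values on both sides and also the largest differences, -0.71 and -0.47. The difference was -0.31 (-0.79 to 0.16). In the block fit the interval was -0.58 to -0.04, the unadjusted p was 0.0298 and the adjusted p was 0.460. Without contralateral array 4 it was -0.14. Its second probe set had a mean of 0.69 and a difference of -0.03. Of the 8 osteocyte markers measured, which do not include Sost, 7 had a lower mean after denervation, with a list mean of 5.94 to 6.69 against 6.62 to 6.73. Over all genes 55.8% had a higher mean. Of the 8 markers, Mepe and Fgf23 had means below 2. Dmp1 and Phex, with means of 11.09 and 11.46, are also in the odontoblast list, so the osteocyte list does not mark osteocytes alone. By mouse, the list differed by -0.79 in mouse 2, where Sost differed by 0.03, and by -0.09 and -0.04 in mice 4 and 5, where Sost differed by -0.71 and -0.47.

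**Figure D3:**
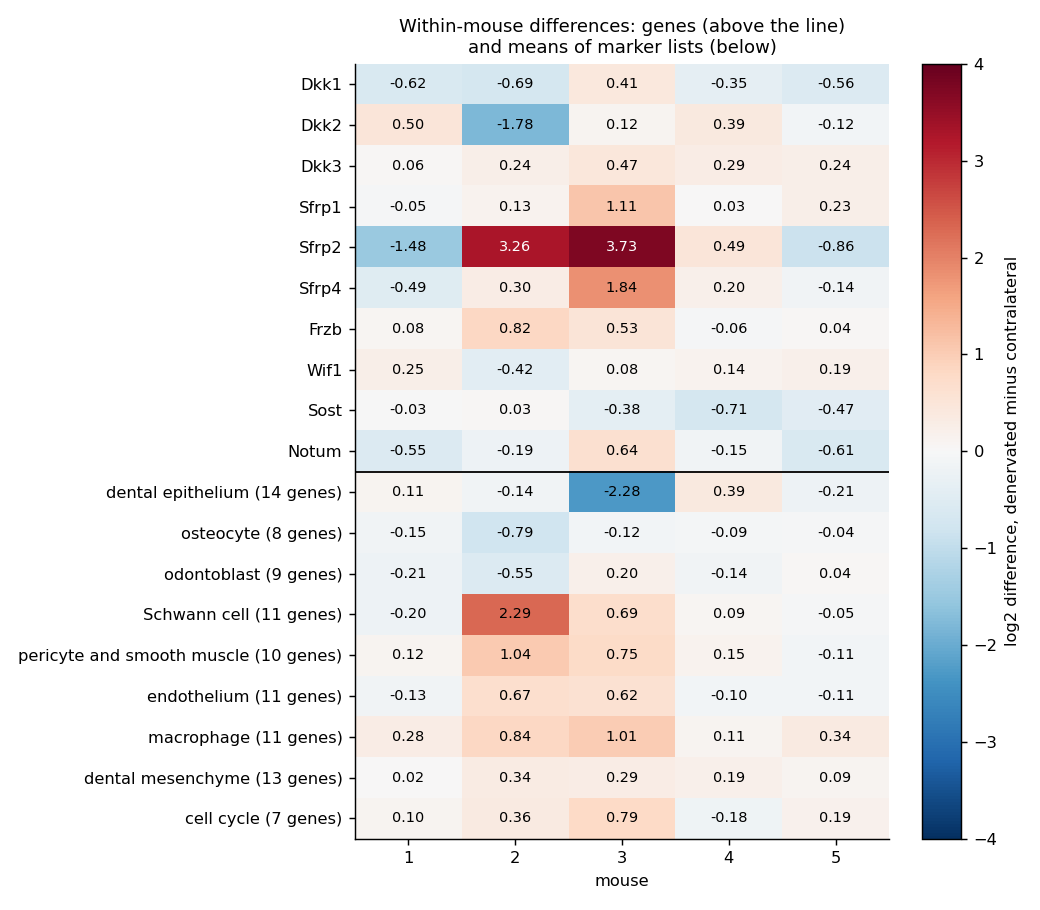
Log2 difference between the denervated and the contralateral incisor of each mouse (columns, 1 to 5) for the 10 genes (above the line) and for the mean of each marker list (below the line), on a colour scale that is symmetric about 0. The largest values are those of Sfrp2 in mice 2 and 3, 3.26 and 3.73, the mice in which the Schwann cell, pericyte, endothelial and macrophage lists are also higher.

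The arrays that set these values also differed in cell type markers. For the gene counts of these lists, 55.8% of all genes had a higher mean. In mice 2 and 3 the list mean of pericytes and smooth muscle (10 genes, of which 9 had a higher mean, 1 of them, Des, below 2) differed by 1.04 and 0.75, and by -0.11 to 0.15 in the other mice. Its level ran from 5.40 to 6.41 in the denervated and from 5.20 to 5.51 in the contralateral incisors. The endothelial list (11 of 11 genes with a higher mean, none below 2) differed by 0.67 and 0.62 in these mice and by -0.13 to -0.10 in the others, with levels of 4.43 to 5.36 against 4.53 to 4.98. The macrophage list (11 of 11 genes with a higher mean, none below 2) differed by 0.84 and 1.01, and by 0.11 to 0.34 in the others, with levels of 6.06 to 6.89 against 5.72 to 6.11. The Schwann cell list differed by 2.29 in mouse 2, 0.69 in mouse 3 and -0.20 to 0.09 in the others. Its levels were 2.56 to 5.03 against 2.57 to 2.91. Of its 11 genes 10 had a higher mean, and Mag, Sox10, S100b, Egr2, Ugt8a and Pmp2 had means below 2. The dental epithelium list differed by -2.28 in mouse 3 and by 0.11, -0.14, 0.39 and -0.21 in mice 1, 2, 4 and 5. Its levels were 6.30 to 9.12 against 8.58 to 9.21. Of its 14 genes 13 had a lower mean and none was below 2. The odontoblast list differed by -0.55 in mouse 2, 0.20 in mouse 3 and -0.21 to 0.04 in the others, with levels of 9.77 to 10.51 against 10.30 to 10.42. Of its 9 genes 6 had a lower mean and none was below 2. The dental mesenchyme list differed by 0.34 and 0.29 in mice 2 and 3 and by 0.02 to 0.19 in the others. Its levels were 5.82 to 6.02 against 5.56 to 5.80. Of its 13 genes 12 had a higher mean, and Barx1 and Alx4 had means below 2. In bulk tissue fewer cells of a type and less RNA per cell cannot be told apart, and the part of these cell types in the values of Sfrp1, Sfrp2, Sfrp4, Frzb, Dkk1, Dkk2 and Notum was not tested.

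Contralateral array 3 also stood at 1 end for many members. It was the lowest contralateral array in 6 of 10, Dkk1, Dkk2, Sfrp1, Sfrp2, Wif1 and Notum. Its mean over 7 cell cycle genes was 4.98, below the 5.55 to 5.88 of the other contralateral arrays. Contralateral array 1 was the highest of its group in 5 members, Dkk1, Dkk3, Sfrp1, Sfrp4 and Notum. For these members mouse 3 therefore joined a low contralateral array to a denervated array that was the highest of its group in 4, Dkk1, Dkk3, Sfrp1 and Sfrp4. Such counts were made for the members only, with no share over all genes. They are therefore not read as particular to the members.

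Where a gene had several probe sets they were compared. Both probe sets of Dkk1 had a lower mean (-0.36 and -0.18), both of Dkk3 a higher one (0.26 and 0.13) and both of Frzb a higher one (0.28 and 0.39). The second Dkk1 probe set was higher in 2 of 5 mice, against 1 of 5 for the first. The 5 probe sets of Sfrp1 had means from 1.42 to 3.26 and differences from 0.02 to 0.29, all above 0. They did not share their pattern over mice: the difference in mouse 3 ranged from -0.26 to 1.11 among them. The mean over a gene's probe sets gave 0 members with an unadjusted p under 0.05, with Dkk1 at -0.27 and Dkk3 at 0.20.

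**Figure D4:**
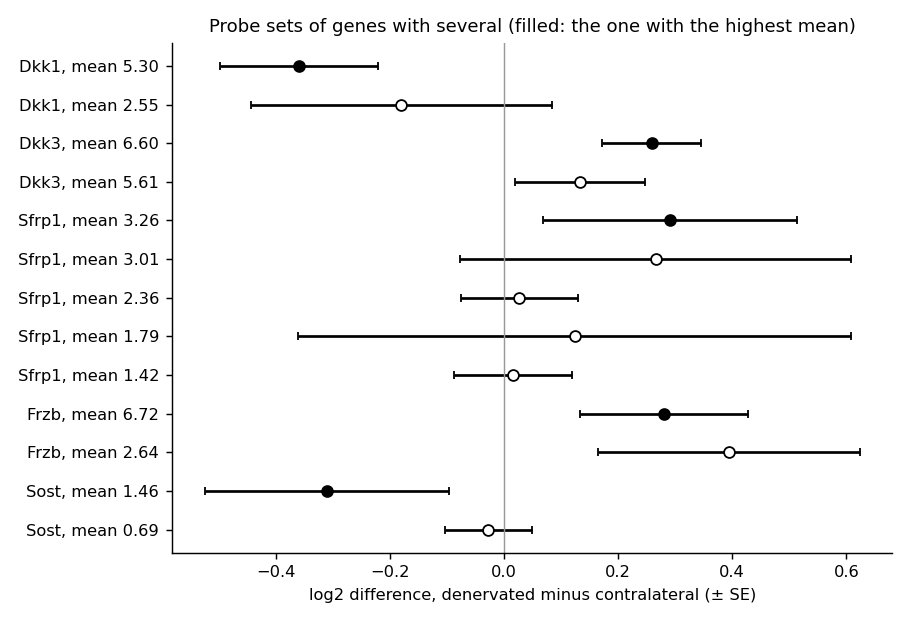
Log2 difference, denervated minus contralateral, with its SE for every probe set of the 5 genes with several probe sets; filled points are the probe sets with the highest mean, and each label gives the probe set's mean log2 intensity. All probe sets of a gene lie on the same side of 0, and the dimmest ones, of Sost and Sfrp1, have differences of -0.03 and 0.02.

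The rest of the Wnt pathway was counted from 5 lists, some of which share genes. Rnf43, Znrf3 and Apcdd1 are in both the antagonist and the response list, and Lgr5 is in both the R-spondin and the response list. Means below 2 were found for 4 of the 15 antagonist, 2 of the 9 R-spondin, 2 of the 16 receptor and 3 of the 15 response genes. Over all genes this share was 40.7%. In the 5 lists no gene passed limma's test after adjustment over all genes, without or with the mouse as a block. For the counts that follow, 55.8% of all genes had a higher mean. At an unadjusted p under 0.05 in limma's fit 4.1% were higher and 2.11% lower. Over all genes 6.58% were higher and 3.8% lower in all 5 mice, and 0.951% had groups that did not overlap. Of 15 other antagonists and coreceptors of antagonists 6 had a higher and 9 a lower mean (median -0.03), with 1 gene in each direction at an unadjusted p under 0.05. Shisa2, whose family retains Frizzled receptors inside the cell, differed by 0.39 ± 0.13 (SE), was higher in 5 of 5 mice and had groups that did not overlap (7.17 to 7.55 against 6.62 to 7.15). Rnf43, a ubiquitin ligase that removes Frizzled from the cell surface and a beta-catenin target, differed by -0.31 ± 0.13. Its within-mouse differences were -0.84 and -0.45 in mice 2 and 3 and -0.11, -0.15 and 0.01 in mice 1, 4 and 5. The difference was -0.18 without contralateral array 2 and, with the mouse as a block, -0.08 without both incisors of mice 2 and 3, an alternative added after the data were seen.

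Of 9 genes for R-spondins, their receptors and Wnt secretion 8 had a higher mean (median 0.22), with 2 higher and 1 lower at an unadjusted p under 0.05. With arrays centred on their medians 5 had a higher mean. The mean of the list differed by 0.39 and 0.64 in mice 2 and 3 and by -0.07, -0.10 and 0.22 in mice 1, 4 and 5. Rspo3 and Lgr5 had means below 2. Wls, the carrier that takes Wnt proteins to the cell surface, differed by 0.22 ± 0.07 and was higher in 5 of 5 mice; the difference was 0.09 with the mean of its probe sets and 0.12 with arrays centred on their medians. Lgr4, an R-spondin receptor gene, differed by -0.26 ± 0.09 and was lower in 5 of 5 mice; the mean of its probe sets gave -0.15. Of 19 Wnt ligand genes 5 had a higher and 14 a lower mean in the comparison (median -0.04), and 10 of the 19 lay below 2 in their mean level. At an unadjusted p under 0.05 there were 0 higher and 2 lower. The count of 5 was 3, 9 and 8 without contralateral array 1, 3 or 5, and 1 with arrays centred on their medians. In mouse 3, where the dental epithelium list differed by -2.28, the mean of the 19 genes differed by -0.39, with Wnt3a at -2.09, Wnt4 at -1.58 and Wnt7a at -1.48, named after their values were seen; the part of the epithelium in these values was not tested. Wnt6 had 7.31, 7.08, 6.92, 7.37 and 7.24 in the denervated and 7.63, 7.64, 7.50, 7.59 and 7.83 in the contralateral incisors, so its groups did not overlap. Its difference was -0.45 ± 0.10 with an unadjusted p of 0.000678 and an adjusted p of 0.790. Wnt10a, an odontoblast and epithelial Wnt gene, differed by -0.34 ± 0.13, also lower in 5 of 5 mice with groups that did not overlap. Without denervated arrays 2 and 3 the differences of Wnt6 and Wnt10a were -0.33 and -0.16.

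Of 16 Frizzled, Lrp and related receptor genes 8 had a higher and 8 a lower mean (median 0.00), with 1 higher and 2 lower at an unadjusted p under 0.05. With the mouse as a block 6 of these 16 genes were under this p, beside 9.92% of all genes (6.99% higher and 2.93% lower). Of these 6, Fzd1, Fzd2, Fzd8 and Ror2 were higher, by 0.23, 0.19, 0.33 and 0.21, and Fzd3 and Fzd5 were lower. In the R-spondin, ligand, antagonist and response lists 4, 3, 2 and 4 genes were under this p with the block. The receptor gene Fzd3 differed by -0.30 ± 0.07 and was lower in 5 of 5 mice with groups that did not overlap; the mean of its probe sets gave -0.19. Fzd5 differed by -0.32 ± 0.13 and was lower in 4 of 5 mice, with -0.14 from the mean of its probe sets. Of 15 beta-catenin response genes 6 had a higher and 9 a lower mean (median 0.00). At an unadjusted p under 0.05 in limma's fit there were 0 higher and 2 lower, Ccn4 and Rnf43. Rnf43 is also the gene counted as lower among the antagonists. With arrays centred on their medians 3 response genes had a higher mean. Axin2, the most widely used readout of beta-catenin activity, had 4.93, 5.12, 4.88, 4.96 and 4.55 in the denervated and 4.88, 5.02, 4.65, 4.93 and 4.75 in the contralateral incisors. The groups overlapped over most of their range, with a difference of 0.04 (-0.20 to 0.28), whose sign turned with arrays centred on their medians (-0.06). Lef1, a partner and target of beta-catenin, differed by 0.00 (-0.30 to 0.29), from a mean of 4.90 in both groups. Ccn4, a matricellular target gene also called Wisp1, differed by -0.41 ± 0.18, with negative values in 5 of 5 mice and -1.19 in mouse 2. Without denervated array 2 it differed by -0.23. Of the 15 response genes 2 were higher and 3 lower in all 5 mice, beside 6.58% and 3.8% of all genes.

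**Figure D5:**
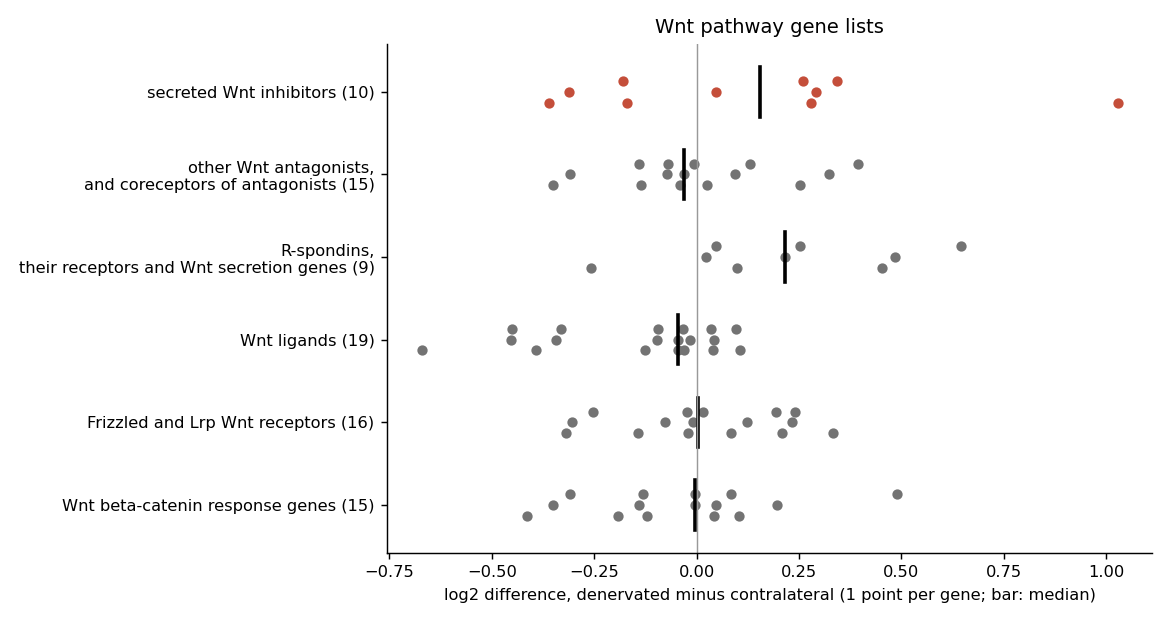
Log2 difference, denervated minus contralateral, of each gene (1 point) in the 10 secreted inhibitors (red) and in 5 other Wnt pathway lists (grey; numbers of measured genes in brackets); black bars are medians. The median of the secreted inhibitors is 0.15 and those of the other lists lie between -0.04 and 0.22. Sfrp2 is the point farthest to the right. A gene in more than 1 list has a point in each.

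For the 6 members with a mean of at least 4, the genes with the most similar pattern over the 10 arrays were listed by Pearson's r among genes of at least that mean and at least their median SD. The points are the 2 incisors of 5 mice, so they share mice and arrays, and r is a description only. Genes picked this way resemble the member over mice by selection, so such likeness below is no separate result. Sfrp2 was followed by Dpep1, a dipeptidase gene (r = 0.97), Pcp4, a calmodulin regulator gene (r = 0.97), and Gas6, a ligand gene of Axl receptors (r = 0.92). Like Sfrp2, all 3 had positive differences in mice 2 and 3 and negative ones in mice 1 and 5; Dpep1 differed by 1.69 and 1.98 in mice 2 and 3 and by -0.59 and -0.96 in mice 1 and 5. Frzb was followed by Aldh2, an aldehyde dehydrogenase gene (r = 0.96), Tpgs1 (r = 0.96) and Igdcc4 (r = 0.96). Dkk3 was followed by Zfp105 (r = 0.93), Smim4 (r = 0.93) and Ogn, which encodes the matrix proteoglycan osteoglycin (r = 0.92).

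Dkk1 was followed by Adam19, a membrane metalloprotease gene (r = 0.90), Otud7b, a deubiquitinase gene (r = 0.90), and Rab13, a gene of vesicle traffic (r = 0.85). Each of these 3 was, like Dkk1, lower in mice 1, 2, 4 and 5 and higher in mouse 3. Dkk2 was followed by Atxn2l (r = 0.90), Tiam2 (r = 0.87) and Letm1 (r = 0.87), each lower in mouse 2, by -0.50, -0.77 and -0.41. Wif1 was followed by Ranbp6 (r = 0.96), Cct2, a chaperonin subunit gene (r = 0.95), and Lypla1 (r = 0.95), and between Wif1 and Dkk2 r was 0.84. None of these 18 genes had an adjusted p below 0.790 in limma's fit.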

How the data were processed

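Total RNA from 10 mouse incisor samples was labelled by the array maker's protocol, per the labels' protocols, and the authors deposited log2 intensities, 1 value per probe set and array. The submitters' processing notes name RMA (background correction, normalization between arrays, probe summary) with no version; a later step and detection calls are not given in the sources used here. The log2 scale was read from the values (-0.16 to 13.2). The arrays' medians, 1.48 to 1.54, are low for RMA; a different variant may have been used, and what values near the low end (Sost, Sfrp4) mean depends on it. Of 45101 probe sets 64 controls were not used; of the other 45037, 34945 name 1 gene symbol in the platform annotation, 932 several and 9160 none. Arrays limit the precision by their number, 5 per group.

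Groups were compared with limma 3.58.1 (lmFit, eBayes) in R 4.3.3 over 18193 genes, 1 probe set per gene, with Benjamini-Hochberg adjustment over all genes and a threshold of 0.05; the fit was tested on simulated data. Equal sample numbers were taken to pair the incisors of a mouse. Per the series' design text the 2 incisors of each of 5 mice were sampled, and deviations from the group means correlated at 0.18 to 0.57 in the 5 same-numbered pairs and at -0.41 to 0.22 in the 20 others. A second fit took the mouse as a block. The members, gene lists and marker lists were chosen with earlier results of these data known. The genes named are the members, Axin2 and Lef1. From each pathway list those past the threshold were added, or else the 2 with the smallest unadjusted p. For members with a mean of at least 4 the 3 genes with the highest Pearson's r were added, clone names passed over. Genes in more than 1 pathway list were also named. Fcna, Wnt3a, Wnt4, Wnt7a, Fzd1, Fzd2, Fzd8, Ror2 and marker genes were named after their values were seen. Alternatives were another probe set rule, normalization, filter, variance model and leaving out arrays or mice.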

Additional observations from a re-analysis of the deposited data

Results flagged for a closer look

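Among the 10 members and the pathway genes named by rule, 42 groups of 5 arrays were examined for an array far from the rest. Chance alone flags about 1 in 20 (2.10 groups), and 2 were found. Sfrp4 had 3.03 in denervated array 3, where the nearest denervated array had 1.59. Ccn4 had 8.82 in denervated array 2, where the nearest had 9.70. The cause was not tested.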

How the results depend on the processing

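The members past the adjusted threshold numbered 0 under all 25 alternatives run. The median member difference, 0.15 in the main fit, ran between -0.06 and 0.19, so its sign was not kept throughout. These moves were smaller than its SD over mice, 0.24, but that SD is larger than the median itself. With the 2 filters on low values the median was not computed, because members dropped out. Over all genes the count past the threshold was 0 with the replicate block and ranged from 0 to 1 when arrays or mice were left out. The 1 was Fcna, without mouse 4 and with the block (adjusted p 0.027); it is no member and was named after its value was seen. The mouse as a block changed no member's call: its smallest adjusted p over members was 0.422.

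Dkk1, Dkk3, Sfrp1, Frzb, Sost and Notum kept their direction in every alternative run on them. Leaving out 1 array moved Dkk2 between -0.34 and 0.12, Wif1 between -0.029 and 0.18, Axin2 between -0.017 and 0.13 and Lef1 between -0.092 and 0.096. Leaving out both arrays of a mouse, with the block, gave -0.0016 for Wif1 without mouse 1, 0.22 for Dkk2 and 0.014 for Lef1 without mouse 2, and -0.031 for Sfrp4, -0.0042 for Axin2 and 0.063 for Lef1 without mouse 3. Without denervated arrays 2 and 3 Dkk2 was 0.33, Sfrp4 -0.034, Axin2 -0.033 and Lef1 0.17. Without both incisors of mice 2 and 3, chosen after seeing the data and fitted with the block, Dkk2 was 0.26, Sfrp2 -0.62, Sfrp4 -0.14, Axin2 -0.040 and Lef1 0.11. Arrays centred on their medians over the 18193 genes, which shifts all differences by 0.10, gave -0.051 for Wif1 and -0.057 for Axin2. Quantile normalization gave -0.025 for Axin2. The mean of probe sets gave -0.0007 for Axin2 and 0.038 for Lef1. The cause of these turns was not tested. Differences of Sost and Sfrp4, near the low end of the scale, may be compressed, which was not tested. With 5 mice, no sham operation and no detection calls, adjusted p values do not show that the groups are alike.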
